A study of Ovis aries with 15 samples.

Results

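Histone H3 trimethylated at lysine 4 (H3K4me3) was profiled by chromatin immunoprecipitation and sequencing in the perirenal fat, the depot around the kidney, of 3 lambs and 2 sheep fetuses. These 5 libraries were selected by antibody from the 15 samples of the series, and the contrast is lamb minus fetus. All animals were purebred wild-type merino sheep. The lambs are labelled as 80 days old, while the growth protocol gives 89 ± 7 days. The fetuses were taken at 132 ± 1 days after conception, with term at 150 ± 3 days. No treatment is described for either stage. A tag, VEH, ends each lamb title and no fetal title, and its meaning cannot be told apart from stage. Sex is not in the labels. Nuclei were digested without crosslinking to fragments of about 150 bp, precipitated with 10 µg of antibody and read as single-end reads of 50 bp. The remaining samples carry H3K27ac and H3K27me3 from 2 lambs and 2 fetuses each, numbered like the first animals here, and a pooled input library of each stage that was not used here.

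H3K4me3 is placed on nucleosomes around transcription start sites by SET1 and MLL complexes and is removed by KDM5 demethylases. Active promoters carry it, often over a broad domain, and so do many CpG-rich promoters of developmental genes that are silenced by Polycomb. Perirenal fat of sheep is rich in brown adipocytes before birth, which burn fatty acids through the uncoupling protein UCP1, and it turns into white, lipid-storing fat after birth. In a whole tissue a changed share of nuclei of one cell type and a changed amount of mark per nucleus cannot be told apart.

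Reads in H3K4me3 peak regions numbered 41765806, 13090548 and 12482468 in lambs 1, 2 and 3, against 37544047 and 58333449 in fetuses 1 and 2, so lambs 2 and 3 were shallow. The libraries also differed in how far strong promoters stood above weak ones. The difference in mean log2 value between the strongest and the weakest 10% of promoters was 3.89, 2.35 and 2.73 in the 3 lambs, against 4.33 and 5.42 in the fetuses. Lamb 1 lay near fetus 1 in this measure and far from the other lambs. The promoter of SUPT4H1 held 3.66%, 7.64% and 8.03% of all promoter signal in lambs 1, 2 and 3, against 1.71% and 0.344% in fetuses 1 and 2. Across promoters, the log2 values of lamb 1 correlated at Pearson's r = 0.939 and 0.937 with the fetuses and at 0.883 and 0.937 with lambs 2 and 3. These coefficients are across genes, which are not independent replicates. For this reason the main results below give lamb 1 alone beside the 3 lambs together. The labels name a pair of sequencing platforms without saying which library ran on which.

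**Figure D1:**
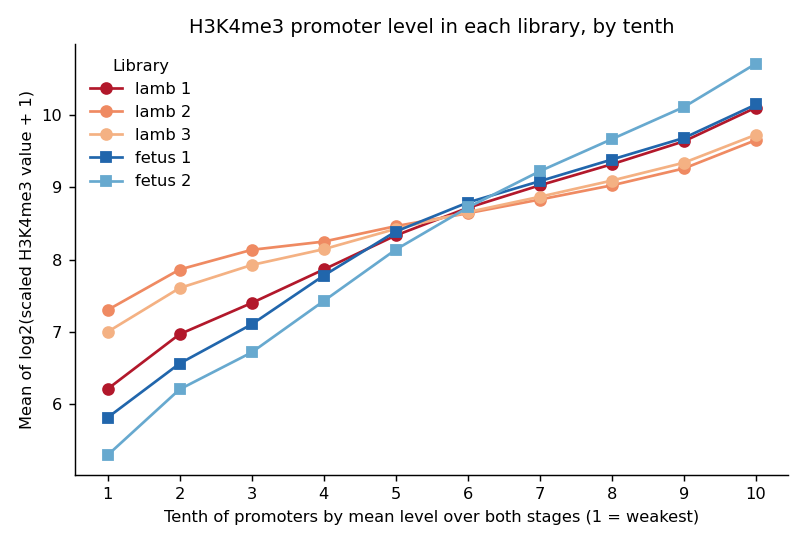
Mean log2(scaled H3K4me3 value + 1), y axis, over 10 groups of promoters of rising mean level, x axis, 1 line per library. Lambs 2 and 3 stand highest in the weakest group and lowest in the strongest, fetus 2 the reverse, and lamb 1 runs close to fetus 1.

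Adipocyte promoters carried H3K4me3 at both stages. The promoter table holds 27 of 30 adipocyte genes written down for this check, among them ADIPOQ, LPL, CEBPA, CIDEC and PLIN1, whereas PPARG and PRDM16 were not analysed here. LPL, the lipoprotein lipase that takes up fatty acids, had scaled values of 720, 652 and 488 in lambs, against 721 and 893 in fetuses, where a scaled value is the deposited promoter signal divided by the library's total and TMM factor (a trimmed mean of ratios between libraries), relative to the mean library. CEBPA, a transcription factor of adipocyte differentiation, had 649, 505 and 511 in lambs and 724 and 505 in fetuses. The lamb and fetal values of CEBPA overlap. Summed over the 27 promoters, the scaled signal was 9981, 9992 and 9501 in lambs, against 12344 and 13067 in fetuses.

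Across the whole table, promoters with weak H3K4me3 were higher in lambs and promoters with strong H3K4me3 were lower. Of 12922 promoters, 1077 (8.33%) were higher in lambs and 245 (1.9%) were lower at an adjusted p under 0.05 in limma, a linear model that pools the spread of all promoters. The weakest 10% had a median log2 change of 1.33, with 188 promoters higher and 0 lower. The strongest 10% had a median of -0.63, with 6 promoters higher and 77 lower. A promoter whose 3 lamb values all lie above both fetal values was common (25.7% of the table), and one whose lamb values all lie below was nearly as common (22.8%). With lambs 2 and 3 left out, no promoter passed limma's threshold, although 102 had an unadjusted p under 0.05 and all 1077 and all 245 kept their sign. Lamb 1 and both fetuses also entered the fit that chose these promoters, so the kept signs are not an independent check. The counts of higher and lower promoters were 1554 and 275 without lamb 1, 40 and 10 without lamb 2 and 8 and 4 without lamb 3. They were 2730 and 2950 without fetus 1 and 608 and 102 without fetus 2. With the deposited scaling, which puts the median change of all promoters at -1.28, they were 55 and 5623. A cyclic loess scaling, which takes out change that moves with level, also left 0 past the threshold, with 1738 at an unadjusted p under 0.05 and a smallest adjusted p of 0.0695. The part that depth and the spread between strong and weak promoters have in these calls was not tested.

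**Figure D2:**
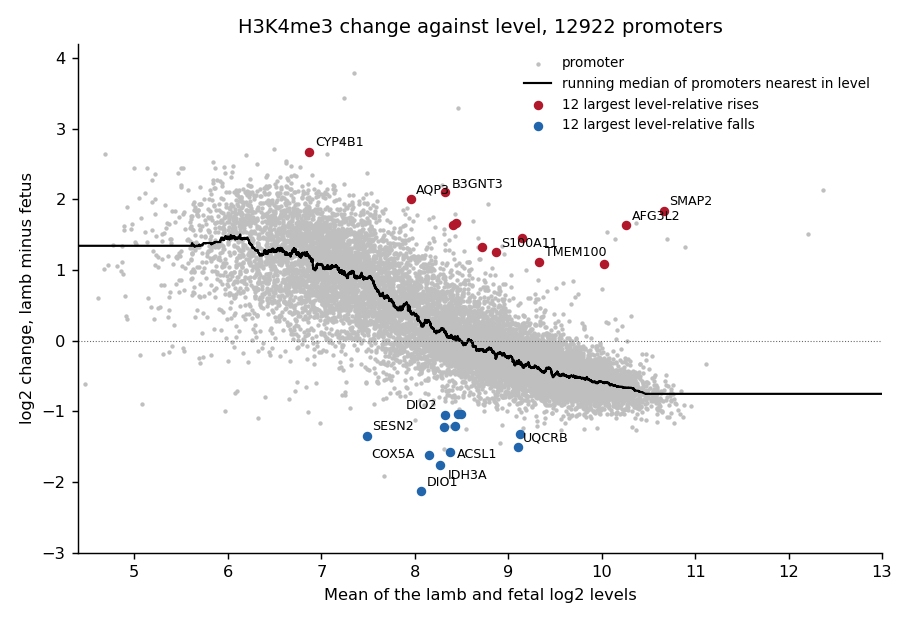
H3K4me3 log2 change, lamb minus fetus (y axis), against mean log2 level (x axis) for the promoters of the table, 3 of which lie outside the axes. The black line, the running median of promoters nearest in level, falls with level, and the red and blue points are the 12 largest rises and 12 largest falls measured from that line among called named promoters.

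Changes were therefore also measured from this line. The level-relative change of a promoter is its log2 change minus the median change of the promoters nearest to it in mean level. It has no test of its own. The lowest and highest 5% of level-relative changes lay beyond -0.65 and 0.67, so a value of -2 or 2 is far outside the bulk. Among promoters past limma's threshold, 355 of the 1077 that were higher and 215 of the 245 that were lower also stood in the outer 5% of their own level. In each of the 3 lambs taken alone against both fetuses, 93 of the higher and 77 of the lower promoters stood in that outer 5%. The 3 comparisons share the fetuses. Of the 24 named by level-relative change in the next paragraphs, DIO1, UQCRB, ACSL1 and B3GNT3 stayed past limma's threshold with each single library left out in turn, at adjusted p of at most 0.0348, 0.0348, 0.0497 and 0.0348.

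The largest level-relative fall among called named promoters was at DIO1, followed by SESN2, IDH3A, COX5A and ACSL1. DIO1 encodes a deiodinase that converts thyroid hormone. Its promoter had scaled values of 86.5, 186 and 128 in lambs 1, 2 and 3, against 544 and 579 in fetuses 1 and 2. Every lamb lay far below both fetuses, by a log2 change of -2.13 ± 0.37 (the standard error of the limma fit, as after each ± of a log2 change; limma, adjusted p = 0.000559), and the level-relative change was -2.35 with 3 lambs and -2.93 with lamb 1 alone. DIO2, the deiodinase that supplies active thyroid hormone inside brown adipocytes, had 236, 229 and 203 in lambs, against 432 and 490 in fetuses. Its log2 change was -1.04 ± 0.31 (limma, adjusted p = 0.0308), with level-relative changes of -1.19 and, for lamb 1 alone, -1.0. DIO3, the inactivating deiodinase, had 150, 246 and 194 in lambs and 222 and 58.9 in fetuses, which overlap. The list of 23 thyroid and adrenergic signalling genes had 0 promoters higher and 3 lower (8.33% and 1.9% over the table). The lower ones were DIO1, DIO2 and the receptor gene ADRB3. The median level-relative change of the list was -0.02, with 3 promoters in the lowest 5% of their level and 2 in the highest (5.63% and 5.46% over the table).

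Some genes of the citric acid cycle and the respiratory chain fell as well. IDH3A, the catalytic subunit of the isocitrate dehydrogenase of the cycle, had 117, 249 and 161 in lambs, against 391 and 824 in fetuses. The groups do not overlap, and the log2 change was -1.76 ± 0.35 (limma, adjusted p = 0.00265). COX5A, a subunit of cytochrome c oxidase, had 112, 217 and 173 in lambs, against 369 and 666 in fetuses, a log2 change of -1.61 ± 0.36 (limma, adjusted p = 0.00499). UQCRB, a subunit of the cytochrome bc1 complex, had 287, 355 and 339 in lambs, against 677 and 1256 in fetuses, a log2 change of -1.50 ± 0.28 (limma, adjusted p = 0.00145). In all of these genes lamb 1 was the lowest of the 5 libraries. Its level-relative change alone was -2.45 for IDH3A, -2.36 for COX5A and -1.55 for UQCRB, against -1.91, -1.89 and -1.17 with 3 lambs. MDH1, the cytosolic malate dehydrogenase that shuttles reducing equivalents, had 298, 367 and 399 in lambs and 572 and 1348 in fetuses. It fell by 1.32 ± 0.29 on the log2 scale (limma, adjusted p = 0.00479), and fetus 2 stood further above the lambs than fetus 1.

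Read against the background of 1.9% lower over the table, 7 of the 47 respiratory chain promoters passed the threshold as lower and 0 as higher. They were COX5A, UQCRB, CYCS, NDUFS1, NDUFS3, NDUFS4 and UQCRQ. CYCS, the electron carrier cytochrome c, had 635, 577 and 595 in lambs, against 1007 and 1527 in fetuses (limma, adjusted p = 0.0182). NDUFS3, a subunit of NADH dehydrogenase, had 424, 244 and 287 in lambs, against 625 and 529 in fetuses (limma, adjusted p = 0.0426), and here lamb 1 was the highest lamb. In 36 of the 47 every lamb lay below both fetuses (22.8% over the table), and the median log2 change was -0.54. These are strong promoters, and calls as lower were more common among such promoters. In the groups of 10% next below the strongest 10%, 69 and 49 of 1292 were lower. Strong promoters in general had negative changes, and relative to like level the median was -0.19, with 8 promoters in the lowest 5% (5.63% over the table) and 0 in the highest (5.46% over the table). It was -0.18, -0.20 and -0.21 with lambs 1, 2 and 3 taken alone. The list of 15 citric acid cycle genes had 2 lower and 0 higher, IDH3A and DLD, a dehydrogenase subunit with 780, 560 and 598 in lambs, against 987 and 1423 in fetuses. Its median level-relative change was -0.09. Mitochondrial ribosome genes had a median log2 change of -0.52 but a level-relative median of -0.05, with 1 of 58 higher and 2 lower. In 31 of the 58 every lamb lay below both fetuses (22.8% over the table). The 14 nuclear regulators of mitochondrial genes had none past the threshold and a level-relative median of -0.04.

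Some lipid genes also fell. ACSL1, which activates long-chain fatty acids, had 147, 210 and 226 in lambs, against 454 and 722 in fetuses, a log2 change of -1.58 ± 0.33 (limma, adjusted p = 0.00306). PLIN1, the perilipin coat of the adipocyte lipid droplet, had 375, 480 and 402 in lambs, against 761 and 1219 in fetuses, a log2 change of -1.21 ± 0.27 (limma, adjusted p = 0.0053). PLIN4, another droplet coat protein, had 230, 292 and 219 in lambs, against 651 and 393 in fetuses (limma, adjusted p = 0.03). Each of these had non-overlapping groups. With lamb 1 alone their level-relative changes were -2.02, -1.19 and -1.17, against -1.62, -0.83 and -1.09 with 3 lambs. ACLY, which makes cytosolic acetyl-CoA for fat synthesis, had 213, 319 and 233 in lambs, against 609 and 439 in fetuses, a log2 change of -1.04 ± 0.31 (limma, adjusted p = 0.0279). Among 27 adipocyte genes 3 were lower, ACSL1, PLIN1 and PLIN4, and 1 was higher (1.9% and 8.33% over the table). The higher one was KLF15, a transcription factor with 236, 340 and 290 in lambs, against 170 and 89 in fetuses. The list had 7 promoters in the lowest 5% of like level (5.63% over the table) and 1 in the highest (5.46% over the table). The lowest 5% included PLIN3, with 138, 297 and 236 in lambs and 430 and 294 in fetuses, which overlap. Fatty acid oxidation genes had 0 of 18 higher and 1 lower (ACSL1), and fatty acid and glyceride synthesis genes had 1 of 18 higher and 1 lower (ACLY).

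The other 3 of the 12 largest falls were at SESN2, TGM2 and GNPNAT1. SESN2, a stress-induced sestrin with the fall next to that of DIO1 in size, had 79.3, 169 and 103 in lambs, against 342 and 236 in fetuses. Its level-relative change was -2.23 with 3 lambs and -2.33 with lamb 1 alone (limma, adjusted p of the change = 0.0444). TGM2, a transglutaminase that crosslinks proteins, had 162, 237 and 229 in lambs, against 467 and 501 in fetuses (limma, adjusted p = 0.0174). GNPNAT1, an acetyltransferase of hexosamine synthesis, had 198, 285 and 208 in lambs, against 499 and 552 in fetuses (limma, adjusted p = 0.0146). In all of the 12 falls every lamb lay below both fetuses, which the rule that chose them required.

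**Figure D3:**
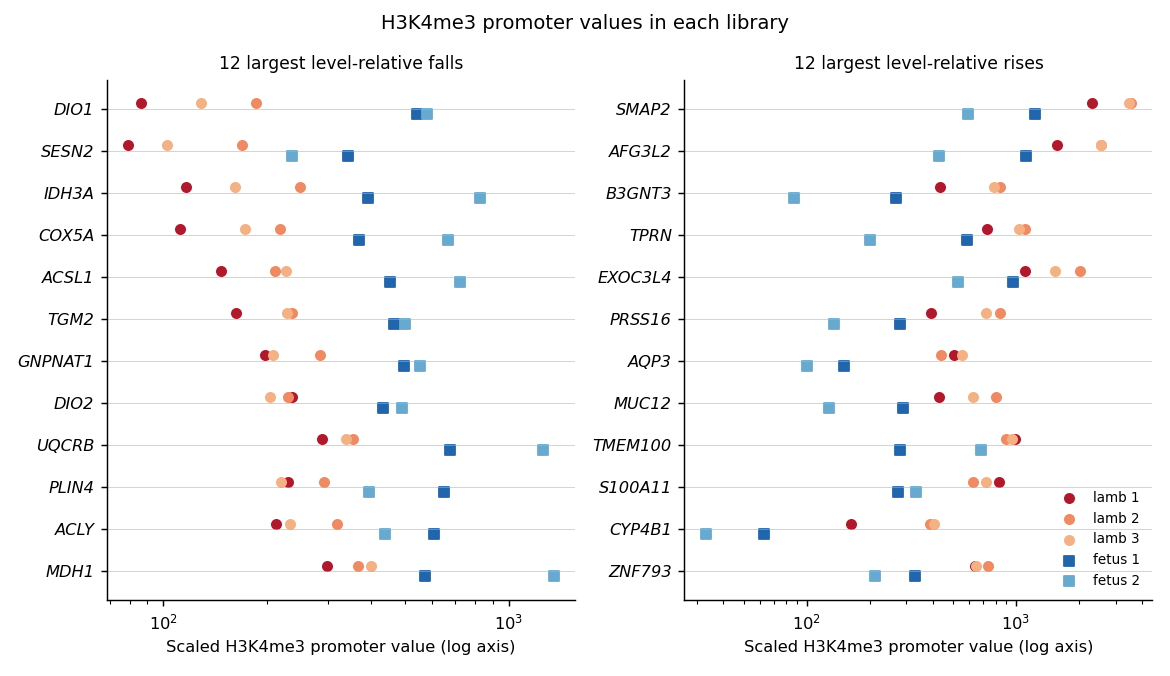
Scaled H3K4me3 value of each library (log x axis) for the 12 largest level-relative falls (left) and rises (right), circles for lambs and squares for fetuses. Among falls lamb 1 is the lowest library at most genes, while at several rises lambs 2 and 3 stand well above lamb 1.

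The 12 largest level-relative rises differed in how the lambs lay. At some promoters the 3 lambs lay together. S100A11, a calcium-binding protein, had 828, 623 and 722 in lambs, against 273 and 334 in fetuses, a log2 change of 1.25 ± 0.27 (limma, adjusted p = 0.00426). AQP3, a channel for water and glycerol, had 507, 437 and 553 in lambs, against 151 and 100.8 in fetuses, a log2 change of 2.00 ± 0.33 (limma, adjusted p = 0.000234). TMEM100, a membrane protein of endothelial cells, had 990, 898 and 964 in lambs, against 281 and 680 in fetuses (limma, adjusted p = 0.0151). At these promoters lamb 1 was about as far from the fetuses as lambs 2 and 3, and its level-relative change alone was 1.57, 1.87 and 1.39, against 1.50, 1.62 and 1.52 with 3 lambs. ZNF793, a zinc finger gene, had 636, 734 and 642 in lambs, against 331 and 212 in fetuses (limma, adjusted p = 0.00306), with level-relative changes of 1.46 and, for lamb 1 alone, 1.29.

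At others the rise was larger in the shallow lambs. SMAP2, a regulator of Arf GTPases, had 2323, 3563 and 3484 in lambs, against 1234 and 592 in fetuses, and its level-relative change was 2.59 with 3 lambs and 1.83 with lamb 1 alone. AFG3L2, a protease of the inner mitochondrial membrane, had 1568, 2545 and 2545 in lambs, against 1122 and 431 in fetuses, with level-relative changes of 2.30 and 1.48. B3GNT3, a glycosyltransferase, had 436, 843 and 789 in lambs, against 269 and 86.5 in fetuses, with 1.97 and 1.34. TPRN, EXOC3L4, PRSS16, MUC12 and CYP4B1 also had lambs 2 and 3 above lamb 1 and fetus 1 above fetus 2. PRSS16, a serine protease known from the thymus, had level-relative changes of 1.64 with 3 lambs and 0.89 with lamb 1 alone. This order of libraries is nearly that of the SUPT4H1 share given above. The exact order of SUPT4H1 puts every lamb above both fetuses, which held at 1023 of the 1077 higher promoters and 25.7% of all. It was met by 153 (14.2%) of the 1077, against 3.57% of all promoters. None of the 245 that were lower could meet it. The difference in shares therefore follows in part from how the higher promoters were chosen. The part of SUPT4H1 in these rises was not tested.

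Among genes of thermogenesis, ADRB3 and DIO2 fell while UCP1 and PPARGC1A missed the threshold. UCP1 had 280, 456 and 392 in lambs, against 602 and 428 in fetuses. Lamb 2 lay above fetus 2, so the groups overlap, and the log2 change of -0.46 ± 0.29 did not pass (limma, adjusted p = 0.229). With lamb 1 alone the level-relative change of UCP1 was -0.83, which put it in the lowest 5% of its level, against -0.31 with 3 lambs. ADRB3, the beta-adrenergic receptor through which noradrenaline acts on adipocytes, had 392, 476 and 399 in lambs, against 825 and 666 in fetuses, a log2 change of -0.82 ± 0.27 (limma, adjusted p = 0.0425). PPARGC1A, the coactivator of mitochondrial biogenesis, had 460, 444 and 369 in lambs and 545 and 942 in fetuses. It did not overlap between stages, but its log2 change of -0.76 ± 0.28 missed the threshold (limma, adjusted p = 0.0596). ADIPOQ, which encodes adiponectin, had 292, 435 and 290 in lambs and 491 and 577 in fetuses (limma, adjusted p = 0.0939). CIDEA, a droplet protein typical of brown adipocytes, overlapped between stages, with 259, 227 and 224 in lambs and 289 and 138 in fetuses. LEP, the leptin gene of white fat, had 212, 365 and 269 in lambs and 228 and 166 in fetuses, a log2 change of 0.50 ± 0.36 (limma, adjusted p = 0.296).

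Of 24 brown fat and thermogenesis genes, 3 were lower (DIO2, ADRB3 and the nucleoside transporter gene SLC29A1) and 2 were higher (S100B and EPSTI1), where 1.9% of the table was lower and 8.33% higher. SLC29A1 had 432, 435 and 383 in lambs, against 833 and 783 in fetuses (limma, adjusted p = 0.0216). S100B, a calcium-binding protein that is also a Schwann cell marker, had 188, 415 and 327 in lambs, against 98 and 81.3 in fetuses (limma, adjusted p = 0.00984). The median level-relative change of the list was -0.14, and it ranged between -0.34 and 0.00 as single libraries were left out. The list had 4 promoters in the lowest 5% and 1 in the highest (5.63% and 5.46% over the table). Of 13 white fat genes, 1 was higher and 0 were lower. It was DPT, an extracellular matrix protein, with 226, 208 and 198 in lambs, against 90 and 74.4 in fetuses (limma, adjusted p = 0.049). Its level-relative change was 0.33 with 3 lambs, 0.90 with lamb 1 alone and -0.09 without lamb 1.

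**Figure D4:**
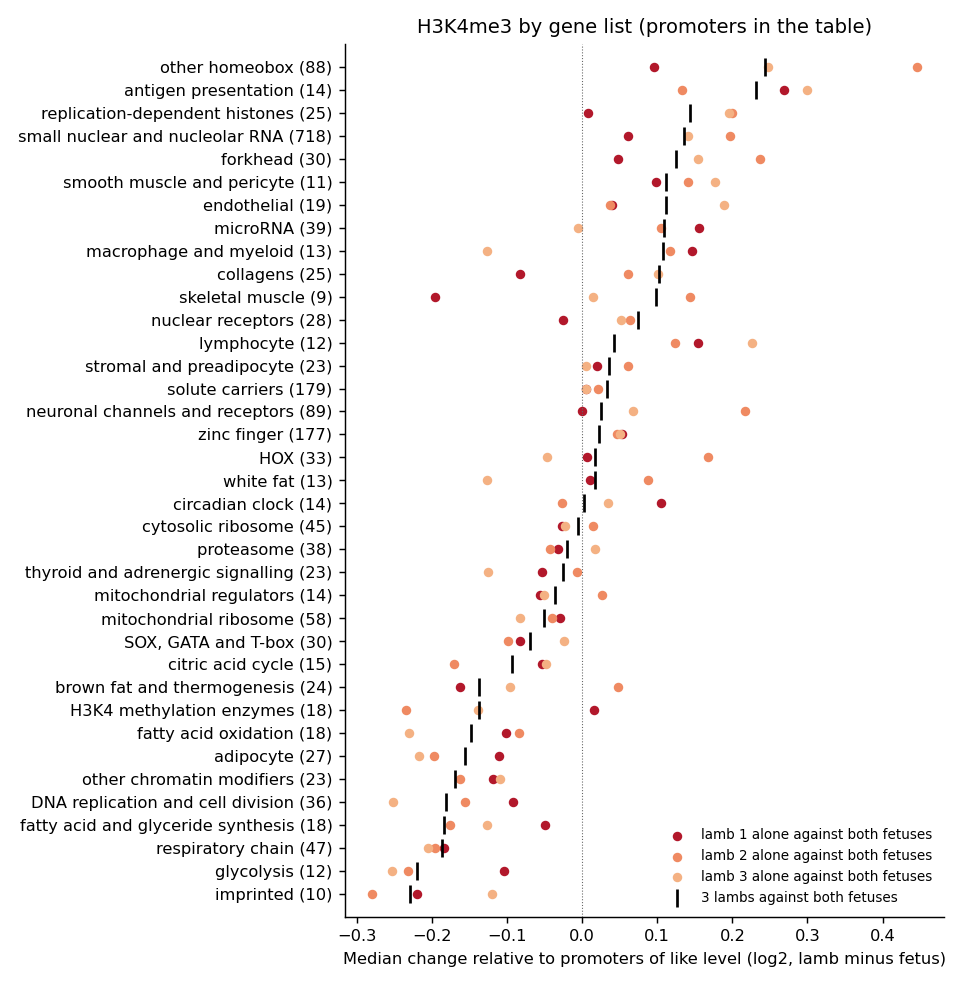
Median change relative to promoters of like level (x axis, log2, lamb minus fetus) for gene lists with 9 or more promoters in the table, whose number stands in brackets. Circles are each lamb alone against both fetuses and the bar is the 3 lambs together; respiratory chain lies at -0.19 with all circles close to it, whereas other homeobox genes spread between 0.10 and 0.45.

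Among developmental transcription factors, homeobox promoters were called higher at a share near that of the table. Homeobox genes outside the HOX clusters specify neural and organ patterns and are typical Polycomb targets. Of 88 such promoters, 9 were higher (8.33% over the table) and 0 lower. In the highest 5% of their level stood 11, and 0 in the lowest (5.46% and 5.63% over the table). The median level-relative change was 0.24 with 3 lambs but 0.10 with lamb 1 alone, and ranged between -0.12 and 0.42 as single libraries were left out, so the sign rested on which libraries were used. OTX2, a homeobox gene of the forebrain, had 292, 582 and 423 in lambs, against 257 and 164 in fetuses (limma, adjusted p = 0.0388). TLX2, a homeobox gene of the enteric nervous system, had 306, 490 and 397 in lambs and 323 and 89.8 in fetuses, so lamb 1 lay below fetus 1 (limma, adjusted p = 0.0341). PHOX2A and NKX2-6 were also among the called genes. HOX genes themselves had 1 of 33 higher and 0 lower, with a level-relative median of 0.02. The 1 was HOXB13, with 187, 488 and 381 in lambs, against 172 and 106 in fetuses, whose level-relative change was 0.66 with 3 lambs and 0.02 with lamb 1 alone. SOX, GATA and T-box genes had 0 of 30 past the threshold in either direction. Forkhead genes had 2 of 30 higher and 0 lower, FOXO1 and FOXP1, regulators of adipocyte differentiation and of many other tissues. FOXO1 had 177, 319 and 320 in lambs, against 119 and 70.7 in fetuses, and FOXP1 had 210, 355 and 392 in lambs, against 100 and 158 in fetuses.

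Immune cell promoters are weak in this tissue and had positive median changes, as weak promoters had in general. Of 33 lymphocyte markers 12 have a promoter in the table. All lambs lay above both fetuses at 9 of the 12 (25.7% over the table) and below at none (22.8% over the table). Their median log2 change was 1.15, with 3 higher and 0 lower (CD3D, CD3G and NKG7), but the level-relative median was 0.04. Of all promoters 8.33% were higher, and in the weak groups next to the very weakest 10% the counts were 310 and 320 of 1292, so 3 of 12 is near the share of weak promoters in general. The summed signal was 1751, 2955 and 2475 in lambs, against 1303 and 871 in fetuses. NKG7, a granule protein of killer cells, had 207, 215 and 187 in lambs, against 81.9 and 50 in fetuses, with lamb 1 level with the other lambs (limma, adjusted p = 0.031). CD3D, a chain of the T cell receptor complex, had 193, 343 and 308 in lambs, against 130 and 94.7 in fetuses, with lamb 1 nearer to the fetuses (limma, adjusted p = 0.0357). CD8A, the strongest lymphocyte marker at both stages, had 258, 352 and 327 in lambs and 258 and 111 in fetuses, which overlap (limma, adjusted p = 0.0923).

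Macrophage markers, 13 of 32 in the table, had 3 higher and 0 lower (again near the share of weak promoters), with a median log2 change of 1.08 and a level-relative median of 0.11. Their summed signal was 3227, 4169 and 3549 in lambs, against 2556 and 1934 in fetuses. CD68, a lysosomal protein of macrophages, had 327, 449 and 383 in lambs, against 164 and 127 in fetuses, with a level-relative change of 0.89 with 3 lambs and 0.96 with lamb 1 alone (limma, adjusted p = 0.00925). C1QA, a complement chain, and TREM2, a receptor of lipid-associated macrophages, were the other called ones. CD14, the strongest macrophage marker at both stages, had 1030, 676 and 785 in lambs and 1017 and 694 in fetuses, which overlap. Its log2 change was -0.04 ± 0.28, and its level-relative change was 0.46. Antigen presentation genes had 3 of 14 higher (8.33% over the table) and 0 lower. Their level-relative median was 0.23 with 3 lambs and 0.27 with lamb 1 alone, and 3 promoters stood in the highest 5% of their level (5.46% over the table). B2M, the strongest of them at both stages, had 1616, 1149 and 1270 in lambs and 1387 and 1671 in fetuses, which overlap. Its log2 change was -0.19 ± 0.35, and its level-relative change was 0.56. CIITA and NLRC5, which switch on MHC class II and class I genes, were among the called ones. CIITA had 199, 483 and 308 in lambs, against 140 and 108 in fetuses (limma, adjusted p = 0.0275).

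Markers of the remaining cell types gave 0 or 1 call per list, where 8.33% of the table was higher and 1.9% lower. Lists this short cannot set such counts apart from those shares. Endothelial markers had 1 of 19 higher (ERG), smooth muscle and pericyte markers 0 of 11, stromal and preadipocyte markers 0 of 23 higher and 1 lower, and skeletal muscle markers 1 of 9 higher (CASQ1). The stromal gene was COL3A1, a fibrillar collagen with 585, 599 and 504 in lambs and 612 and 1771 in fetuses, where fetus 2 alone stood far above the rest (limma, adjusted p = 0.0477). Its level-relative change was -0.42, and 0.099 without fetus 2. Of the adrenal markers 5 of 18 were in the table, with a summed signal of 966, 1494 and 1378 in lambs and 1098 and 646 in fetuses. CHGB, a granin of chromaffin cells, was the called one, with 128, 384 and 259 in lambs, against 69 and 59.3 in fetuses. Of 7 Schwann and nerve markers S100B was the called one, and no mesothelial, erythroid or smooth muscle marker passed the threshold. The part of cell composition in the changes above was not tested.

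Cell division promoters had few calls but leaned lower relative to like level. Of 36 such genes, 0 were higher and 2 lower (8.33% and 1.9% over the table), CCNA2 and TTK. In the lowest 5% of their level stood 6 (16.7%, against 5.63% over the table), and 0 in the highest (5.46% over the table). CCNA2, a cyclin of DNA replication and mitosis, had 432, 278 and 339 in lambs, against 464 and 849 in fetuses (limma, adjusted p = 0.0469). The level-relative median of the list was -0.18 with 3 lambs and -0.09 with lamb 1 alone. Of 12 glycolysis genes, 1 was higher and 0 lower (8.33% and 1.9% over the table). The list leaned lower relative to like level, with 9 of the 12 below 0. Its level-relative median was -0.22 with 3 lambs and -0.10 with lamb 1 alone. The higher gene was PFKFB3, which makes the activator of phosphofructokinase. It had 233, 268 and 229 in lambs, against 83 and 62.2 in fetuses, a log2 change of 1.74 ± 0.45 (limma, adjusted p = 0.0157). With lamb 1 alone its level-relative change was 1.10, against 0.70 with 3 lambs.

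Genes that write, read or remove histone marks were mostly not called, as were most promoters of the table (8.33% higher and 1.9% lower). The lists of this paragraph are to be read against these shares. None of the 18 genes of H3K4 methylation and demethylation in the table passed the threshold. Among 23 other chromatin modifiers 2 deacetylase genes were higher and 2 genes lower. HDAC2 was one of the lower ones, with 529, 398 and 411 in lambs, against 711 and 894 in fetuses (limma, adjusted p = 0.0366). HDAC5 had 181, 297 and 266 in lambs, against 154 and 49.2 in fetuses (limma, adjusted p = 0.0365). Among 28 nuclear receptor genes 2 were higher and 0 lower. RORA, a clock-linked receptor, had 262, 355 and 402 in lambs, against 149 and 123 in fetuses (limma, adjusted p = 0.0216), and NR4A3 was the other. RORA was also the 1 called of 14 circadian clock genes. Cytosolic ribosome genes had 1 of 45 higher and 0 lower, proteasome genes 2 of 38 and 0, histone genes 1 of 25 and 0, and collagens 1 of 25 higher and 1 lower. Solute carriers had 10 of 179 higher and 4 lower, and none of 10 imprinted genes was called.

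MicroRNA promoters included 3 higher and 2 lower of 39 (8.33% and 1.9% over the table). The promoter named oar-mir-21 had 547, 562 and 474 in lambs, against 156 and 403 in fetuses, a log2 change of 1.06 ± 0.31 (limma, adjusted p = 0.0264) with a level-relative change of 1.12 for lamb 1 alone. The one named oar-mir-30a had 295, 331 and 441 in lambs, against 128 and 140 in fetuses (limma, adjusted p = 0.0142). The one named oar-mir-199a, which lies in a mesenchymal microRNA cluster, had 900, 529 and 651 in lambs, against 947 and 1849 in fetuses (limma, adjusted p = 0.0348). Lamb 1 and fetus 1 were close there, and fetus 2 stood alone.

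Small nuclear, nucleolar and 5S RNA genes exist in many near-identical copies, so reads could be split between them and their values are uncertain. Of 718 such promoters 140 were higher (8.33% over the table) and 4 lower, with a median log2 change of 0.88 and a level-relative median of 0.14. Of 61 promoters named 5S_rRNA, 27 (44.3%) were higher and 0 lower, against 310 and 320 of 1292 higher in the weak groups named above. Their median scaled value was 138, 285 and 238 in lambs, against 75.4 and 72.3 in fetuses. The copy at 16:20708738-20708866 (Oar_v3.1) had 260, 1808 and 2825 in lambs, against 137 and 91 in fetuses. There lambs 2 and 3 were far above lamb 1, and the level-relative change was 3.24 with 3 lambs but 0.85 with lamb 1 alone.

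The number of peak regions called depended on the test. Of 56169 autosomal regions, 35 (0.0623%) were higher in lambs and 39 (0.0694%) lower at an adjusted p under 0.05 in edgeR's quasi-likelihood test on raw counts, whereas DESeq2 called 1689 and 3634. The falls had a median width of 3200 bp, against 1200 bp over all autosomal regions. Strong regions were broad in general, with a median width of 4300 bp in the strongest 10% and 700 bp in the weakest. Of the 39 falls, 36 overlapped an H3K27ac region, against 56.1% of all, and 8 (20.5%) an H3K27me3 region, against 22.0% of all. The rises were narrow, with a median width of 850 bp, and 5 of 35 overlapped an H3K27ac region. Of the 35, 48.6% overlapped an H3K27me3 region and 42.9% overlapped neither mark, against 22.0% and 26.3% of all autosomal regions. In 32 of the 39 falls lamb 1 was the lowest lamb, and their median log2 change was -2.18 with 3 lambs and -2.40 with lamb 1 alone. In 16 of the 35 rises lambs 2 and 3 were both over 3 times lamb 1, and the median change was 3.30 with 3 lambs and 1.58 with lamb 1 alone. With lambs 2 and 3 both left out, 0 regions were higher and 2 lower in edgeR's test. Without lamb 2 alone no region passed in either direction, with 6514 at an unadjusted p under 0.05. Without lamb 1 alone 562 were higher and 3931 lower, and without fetus 1 8343 were higher and 7689 lower. The median change again depended on level, being 0.06 in the weakest 10% of regions and -0.95 in the strongest.

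The region 1:28161601-28168550 (Oar_v3.1) is 6950 bp wide and had scaled counts of 226, 384 and 341 in lambs, against 2625 and 2625 in fetuses. This is a log2 change of -3.06 (edgeR, adjusted p = 0.00443). The region 1:147666451-147671850 had 285, 434 and 327 in lambs, against 1473 and 3709 in fetuses (edgeR, adjusted p = 0.0123). The region 2:233972101-233974750 had 125, 162 and 133 in lambs, against 1198 and 872 in fetuses (edgeR, adjusted p = 0.00443). In each of these the 3 lambs lay close together and far below both fetuses. The broadest fall, 2:152019251-152028700, spans 9450 bp. No annotation of this build was at hand, so these regions were not linked to genes.

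Among rises, 5:37980551-37984050 was the broadest at 3500 bp, with scaled counts of 1015, 861 and 540 in lambs, against 191 and 137 in fetuses. There lamb 1 was the highest library. The largest rises looked different. The region 16:20708401-20709200, which contains the 5S_rRNA copy above, had 195, 1549 and 2796 in lambs, against 102 and 51.8 in fetuses (edgeR, adjusted p = 0.0441). It is the only 1 of the 35 that overlaps a promoter name with coordinates, and the next largest, 4:105034401-105035200, had 86.3, 843 and 1184 in lambs, against 47.1 and 26.8 in fetuses.

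The other marks were read in lambs 1 and 2 and fetuses 1 and 2. The promoters that lost H3K4me3 were all in the H3K27ac table (245 of 245, against 78.2% of all promoters) and seldom in the H3K27me3 table (8.16%, against 27.3% of all). Their median H3K27ac log2 change was -0.62, against -0.07 over all shared promoters. Relative to promoters of like H3K27ac level it was -0.35, against -0.04. The 20 that were in the H3K27me3 table had a median H3K27me3 change of -0.52, against -0.26 over all shared promoters. The promoters that gained H3K4me3 were less often in the H3K27ac table (43.8%) and more often in the H3K27me3 table (47.4%). Their median change was 0.26 for H3K27ac and 0.09 for H3K27me3, so both marks lay above the medians over all shared promoters. Relative to like level of each mark it was 0.31 for H3K27ac and 0.21 for H3K27me3, against -0.04 and -0.17. The shares of promoters in each table followed level whether promoters were called or not. The H3K27ac table held 45.1% of the weakest 10% of H3K4me3 promoters, against 98.5% of the strongest, and the H3K27me3 table held 43.3% of the weakest 10%, against 6.81% of the strongest. The marks share animals, so they are not independent replicates of each other.

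Single genes differed in how H3K27ac moved beside H3K4me3. DIO1 and DIO2 fell in both, with H3K27ac log2 changes of -0.86 and -0.85 (limma, adjusted p = 0.000275 and 0.000461). PLIN1 and GNPNAT1 did so too, at -0.93 and -0.86. The H3K27ac change was -0.07 at COX5A, -0.25 at IDH3A, -0.14 at ACLY and 0.16 at TGM2, none past the threshold. At UCP1 the H3K27ac change of -0.94 passed the threshold (limma, adjusted p = 0.000242) while that of H3K4me3 did not. Among rises, CYP4B1 had an H3K27ac change of 0.88 (limma, adjusted p = 0.00636), and S100A11 and AQP3 had -0.06 and -0.04. The difference between the marks was not tested at any gene.

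**Figure D5:**
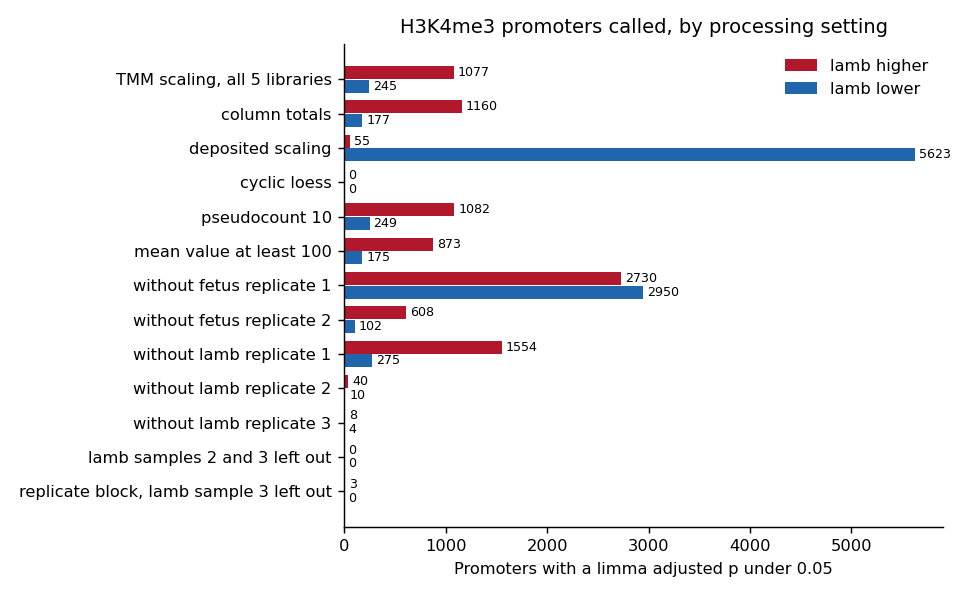
Number of promoters with a limma adjusted p under 0.05 (x axis), lamb higher in red and lamb lower in blue, for each scaling, filter or set of libraries (y axis). Calls range between 0 with cyclic loess or without lambs 2 and 3 and 5623 lower with the deposited scaling.

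The authors' deposited tables, which hold their own test of the same libraries, list 1247 promoters higher in lambs and 353 lower at an adjusted p under 0.05. The sign of the authors' deposited fold equals that of the limma change at 98.6% of promoters, and 1166 promoters were called by both. For autosomal regions the authors' deposited table lists 1546 higher and 4245 lower, and all 74 regions called by edgeR's quasi-likelihood test are among them.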

How the data were processed

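The authors deposited one promoter table and one peak region table of H3K4me3. Per the labels, reads were mapped to Oar_v3.1 with CLC Genomics Workbench 7.0, and the submitters' processing notes also name bedtools 2.19.0, edgeR and MACS without roles. The peak tables hold whole-number read counts per region, deposited under the header of expression values. The deposited promoter values are a scaled signal in steps of 1 read; neither their factor nor the window width is given in the sources used here. Each promoter reaches a deposited signal of at least 50.7 in some library. The deposited tables also give the authors' own fold change, p-value and adjusted p-value, which the headers call EDGE.

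Libraries were grouped by stage from their labels. The promoter signal was rescaled by column total and TMM factor, set to log2(value + 1) and tested with limma 3.58.1 (trend), adjusted over 12922 promoters. Counts of autosomal regions were tested with edgeR 4.0.16 (quasi-likelihood, TMM) and, as an alternative, DESeq2 1.42.0. The design foresaw counts for promoters as an alternative; the values are a signal, so limma was used throughout. Stage was the only term. Animals of the 2 stages have different identifiers in the titles and share only a number, so the numbers do not pair the animals. Same-numbered libraries did not deviate together (r = -0.394). The unlike spread between strong and weak promoters enters this r, so it cannot decide on pairing. With 3 lambs against 2 fetuses an exact permutation test cannot go below p = 0.2 (two-sided), so p-values rest on the spread pooled over features. The 41 gene lists and the genes to name were chosen with earlier results of these data known. Named were 9 fat genes, the 12 largest level-relative rises and falls among called named promoters without overlap (multi-copy RNAs and histones left out) and up to 4 called members of each list. Also chosen were the strongest markers, of which those of the lymphocyte, macrophage and antigen presentation lists are given, and the 6 largest and 3 broadest called regions each way. CEBPA, LPL, DIO3, PLIN3 and the called list members beyond 4 were chosen after their values were seen. Symbols are those of the tables. A called list member is not reported here. The steps were tested on simulated data. Depth limits precision most in lambs 2 and 3, with a median of 160 and 161 reads per promoter, against 620 in lamb 1 and 726 and 861 in the fetuses.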

Additional observations from a re-analysis of the deposited data

How the results depend on the processing

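Calls depended strongly on the scaling and on single libraries, and some level-relative changes on single libraries. Promoters higher and lower numbered 55 and 5623 with the deposited scaling, whose median change over all promoters is -1.28, and 0 and 0 with cyclic loess or with lambs 2 and 3 left out. Leaving out 1 library at a time gave between 8 and 2730 higher and between 4 and 2950 lower; the fewest came without lamb 3 (8 and 4) and without lamb 2 (40 and 10), and fetus 1 left out gave the most. Column totals, a pseudocount of 10 and a mean value of at least 100 kept both counts within 1.5 times. Autosomal regions higher and lower numbered 1689 and 3634 with DESeq2, 133 and 38 with library totals, 0 and 0 with loess offsets (7633 at an unadjusted p under 0.05), 1324 and 196 with a mean count of at least 200, 89 and 85 thinned to the lowest total, 0 and 2 with lambs 2 and 3 left out, and, 1 library left out, between 0 and 8343 and between 0 and 7689. All 24 promoters with the largest level-relative changes, which were picked on that measure, stayed in the outer 5% of their level in each of the 8 alternatives to that measure. With lambs 2 and 3 left out the lone lamb is assumed to vary like the fetuses. The cause of these differences was not tested.

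The replicate block, with lamb 3 left out, gave 3 promoters higher and 0 lower, and 126 regions higher and 35 lower; the numbers do not pair the animals. The crossed pairing, chosen after seeing the data, gave 688 and 726 promoters and 667 and 1459 regions. The edgeR test on promoter reads and the thinning of promoter reads were not run, since the deposited promoter values are a scaled signal.

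With the deposited scaling the log2 change turned negative at S100A11 (-0.033), TMEM100 (-0.17), EXOC3L4 (-0.20), KLF15 (-0.0736), NKX2-6 (-0.0866), OTX2 (-0.27), PHOX2A (-0.21), TLX2 (-0.09), HOXB13 (-0.011), CD3G (-0.00621), CASQ1 (-0.020), NR4A3 (-0.25), oar-mir-21 (-0.22), HDAC7 (-0.13), ADIRF (-0.062) and TPPP3 (-0.35). As single libraries were left out, the level-relative change of DPT ranged between -0.086 (without lamb 1) and 0.53, and that of COL3A1 between -0.82 and 0.099 (without fetus 2).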

Other observations

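Some further promoters stood apart from others of their level, and ADIRF and TPPP3 but not HCAR1, EHD2 or AKAP1 passed the limma threshold. They were chosen after their values were seen, by their small unadjusted p under cyclic loess, and are given as values. HCAR1, the lactate receptor of adipocytes, had scaled values of 1042, 908 and 974 in lambs, against 632 and 730 in fetuses, with a level-relative change of 1.01. EHD2, an ATPase of caveolae, had 1448, 1120 and 1226 in lambs, against 894 and 1156 in fetuses, where lamb 2 lies below fetus 2. AKAP1, an anchor of protein kinase A at mitochondria, had 44.4, 77.3 and 72.4 in lambs, against 134 and 90.2 in fetuses, with a level-relative change of -2.07 and an H3K27ac log2 change of -0.97 (limma, adjusted p = 0.00613). ADIRF, an adipogenesis regulatory factor, had 810, 676 and 799 in lambs, against 395 and 267 in fetuses, and TPPP3, a tubulin-binding protein, had 768, 700 and 696 in lambs, against 409 and 346 in fetuses. The limma adjusted p of these was 0.00479 and 0.0229, and lamb 1 alone gave level-relative changes of 1.46 and 1.15.

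Zinc finger genes were mixed, with 14 of 177 promoters higher and 4 lower (8.33% and 1.9% over the table). In the highest and lowest 5% of their level stood 17 and 6 (5.46% and 5.63% over the table). The level-relative median was 0.02. ZNF404 had 479, 712 and 556 in lambs, against 224 and 186 in fetuses. Neuronal channel and receptor genes, which are weak promoters here, had 16 of 89 higher (8.33% over the table) and 0 lower with a median log2 change of 0.80, but a level-relative median of 0.03.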
